A study of Mus musculus with 6 samples.

Results

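Messenger RNA of the proteasome subunit genes was examined in mouse hearts that lacked miR-27b and in wild-type hearts, all of them under pressure overload. The genes were chosen by name, as the rows whose symbol begins with Psma, Psmb, Psmc or Psmd followed by a number, and 40 of the 17570 Entrez Gene IDs in the files met that rule. Of these, Psmc3ip is a recombination protein named for its interaction with the ATPase Psmc3 and not a proteasome subunit, and it was set apart, which left 39 proteasome genes. They comprised 8 genes of the alpha ring, 7 constitutive genes of the beta ring, Psmb11 of the thymus, 3 immune catalytic subunits, 6 ATPases and 11 non-ATPase subunits of the regulatory particle, and 3 chaperones that help to assemble it.

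The KO/TAC group held 3 hearts of young adult miR-27b-null mice, and the WT/TAC group held 3 hearts of young adult wild-type C57BL/6 mice. The null mice were homozygous for a small deletion made by TALEN injection into C57BL/6 eggs, which removed bases of the mature 3p strand in every cell of the body, so that the loss was not limited to the heart. Both groups had undergone transverse aortic constriction (TAC), a surgical narrowing of the aortic arch that loads the left ventricle, 8 weeks before the hearts were taken. Unoperated or sham-operated hearts were not analysed here, and the deleted microRNA is not a row of these files, so that the genotype could not be checked in these values. The labels number the hearts 1 to 3 in each group and do not say which chambers were taken.

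The proteasome is the barrel-shaped protease that degrades proteins tagged with ubiquitin. Its core particle is built of stacked alpha and beta rings, and the peptide-cutting sites lie in the beta rings on Psmb6 (caspase-like), Psmb7 (trypsin-like) and Psmb5 (chymotrypsin-like). Interferon induces Psmb9, Psmb10 and Psmb8, which take the places of Psmb6, Psmb7 and Psmb5 in newly built immunoproteasomes and alter the peptides made for antigen presentation. The regulatory particle caps the core, where ATPases of the Psmc family unfold the substrate and non-ATPase Psmd subunits bind ubiquitin and remove it. Heart muscle relies on the proteasome to replace sarcomere proteins, and the constitutive genes are transcribed together under Nfe2l1, a factor that responds to a shortfall of proteasome activity.

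The bases upstream of 4 members are shown because the genes stand for the contrast that the values below are read against, with Psmb8 and Psmb9 as interferon-induced genes, Psmb5 as the constitutive partner of Psmb8, and Psmb3 as a beta ring gene whose groups did not overlap. Each run holds the 170 bases just before the start of transcription in RefSeq, 5′ to 3′ on the strand of the gene, on GRCm38.p6. Capitals mark matches to the motifs described further on. Psmb8 and Psmb9 lie close together within the major histocompatibility complex, at chr17:34198025-34198194 on the plus strand and chr17:34187331-34187500 on the minus strand. The runs of Psmb5 and Psmb3 lie at chr14:54617996-54618165 on the minus strand and chr11:97703264-97703433 on the plus strand.
Psmb8: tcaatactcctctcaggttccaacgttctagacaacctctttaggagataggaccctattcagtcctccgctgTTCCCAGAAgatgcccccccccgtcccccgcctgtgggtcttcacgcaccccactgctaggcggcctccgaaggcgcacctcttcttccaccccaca
Psmb9: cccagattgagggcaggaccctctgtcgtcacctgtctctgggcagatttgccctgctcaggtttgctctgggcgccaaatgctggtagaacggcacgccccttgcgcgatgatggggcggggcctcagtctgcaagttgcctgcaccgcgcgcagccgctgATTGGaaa
Psmb5: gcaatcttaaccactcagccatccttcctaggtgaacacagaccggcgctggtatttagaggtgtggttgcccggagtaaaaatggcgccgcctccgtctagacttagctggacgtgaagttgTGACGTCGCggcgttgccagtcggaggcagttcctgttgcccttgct
Psmb3: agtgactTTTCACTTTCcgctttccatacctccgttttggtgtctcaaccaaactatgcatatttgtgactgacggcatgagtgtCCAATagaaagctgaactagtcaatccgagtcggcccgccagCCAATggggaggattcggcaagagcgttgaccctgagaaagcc

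Values are FPKM, fragments per kilobase of transcript scaled to the mapped fragments of the library, so that levels of different genes are set against each other per length. Library sums lay between 519562 and 553716 FPKM. The depth, estimated from the spacing of the lowest values, was 12800000 to 13100000 fragments in KO/TAC libraries and 15300000 to 15900000 in WT/TAC libraries. Cardiomyocyte markers were high in all 6 libraries. Myh6, the alpha myosin heavy chain, had 5586 to 6935 FPKM in KO/TAC hearts and 3990 to 6462 FPKM in WT/TAC hearts. The 6 markers summed to 30450, 31470 and 31380 FPKM in KO/TAC hearts and to 25090, 26210 and 27960 FPKM in WT/TAC hearts, without overlap. All 6 had a positive log2 fold change, and 1 of them, Pln, rose at the thresholds given below. The extraction text of the labels names granulosa cells, whose markers were not examined here. WT/TAC replicate 1 stood apart in its chamber genes. Myl7, the light chain of atrial myosin, had 0.25, 333.4 and 0.66 FPKM in KO/TAC hearts and 8140, 0.23 and 1135 FPKM in WT/TAC hearts, so that KO/TAC replicate 2 and WT/TAC replicate 3 also held atrial RNA. The 4 atrial markers summed to 83.96 to 2042 FPKM in KO/TAC hearts, against 79790 FPKM in WT/TAC replicate 1 and 6238 and 8706 FPKM in the other WT/TAC hearts. In WT/TAC replicate 2 nearly all of the sum was Nppa, at 6236 FPKM, with Myl4 at 2.34 FPKM and Sln at 0.0 FPKM. The sums therefore do not rank the hearts as Myl7 does. The 2 ventricular light chains summed to 21200 to 23100 FPKM in KO/TAC hearts, against 269.1 FPKM in that heart and 16750 and 19750 FPKM in the others. All 5 fibroblast markers fell at the thresholds given below, with sums of 273.3 to 325.0 FPKM in KO/TAC hearts and 397.2 to 620.2 FPKM in WT/TAC hearts. The part of these differences in the proteasome values was not tested beyond the alternatives given below, which include the comparison without WT/TAC replicate 1. In whole tissue, fewer cells of a type and less RNA per cell cannot be told apart.

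Messenger RNA of the constitutive proteasome was abundant in every heart. None of the 38 members that passed the filter on low values rose or fell at the study thresholds, namely 0.05 as the upper limit of the unadjusted p, together with 1.2 as the smallest fold by the fit. Over all 12520 genes tested, 11.1% passed these thresholds, 4.94% of them higher and 6.14% lower in KO/TAC hearts. By limma, 0 members had an unadjusted p under 0.05, while 1402 genes did. The lowest p of a member was 0.0589, for Psmb2, with an adjusted p of 0.465 over all genes tested. A gene-by-gene 2-sample test gave 3 members with an unadjusted p under 0.05, namely Psmb2, Psmb3 and Psmd7, and none of these reached a fold of 1.2. Across all genes, 2 had an adjusted p under 0.05. Psmb11 was the member under the filter, at 0.01, 0.02 and 0.14 FPKM in KO/TAC hearts and 0.12, 0.12 and 0.09 FPKM in WT/TAC hearts.

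The fitted log2 fold changes of KO/TAC over WT/TAC ran from -0.17 to 0.38, with a median of 0.06 and with 27 above 0 and 11 below. Over all genes tested the median was -0.005, and 49.2% were above 0. The standard errors of the members ran from 0.10 to 0.32 with a median of 0.13. The 95% interval of the fold lay within 1.2-fold in either direction for 1 member, within 1.5-fold for 27 and within 2-fold for 36 of 38. In 3 members the groups did not overlap, against 18.3% of all genes tested. The limma p-values and standard errors rest on the spread between these 3 hearts a group, drawn toward a variance trend over all genes tested. They measure no other source of variation.

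**Figure D1:**
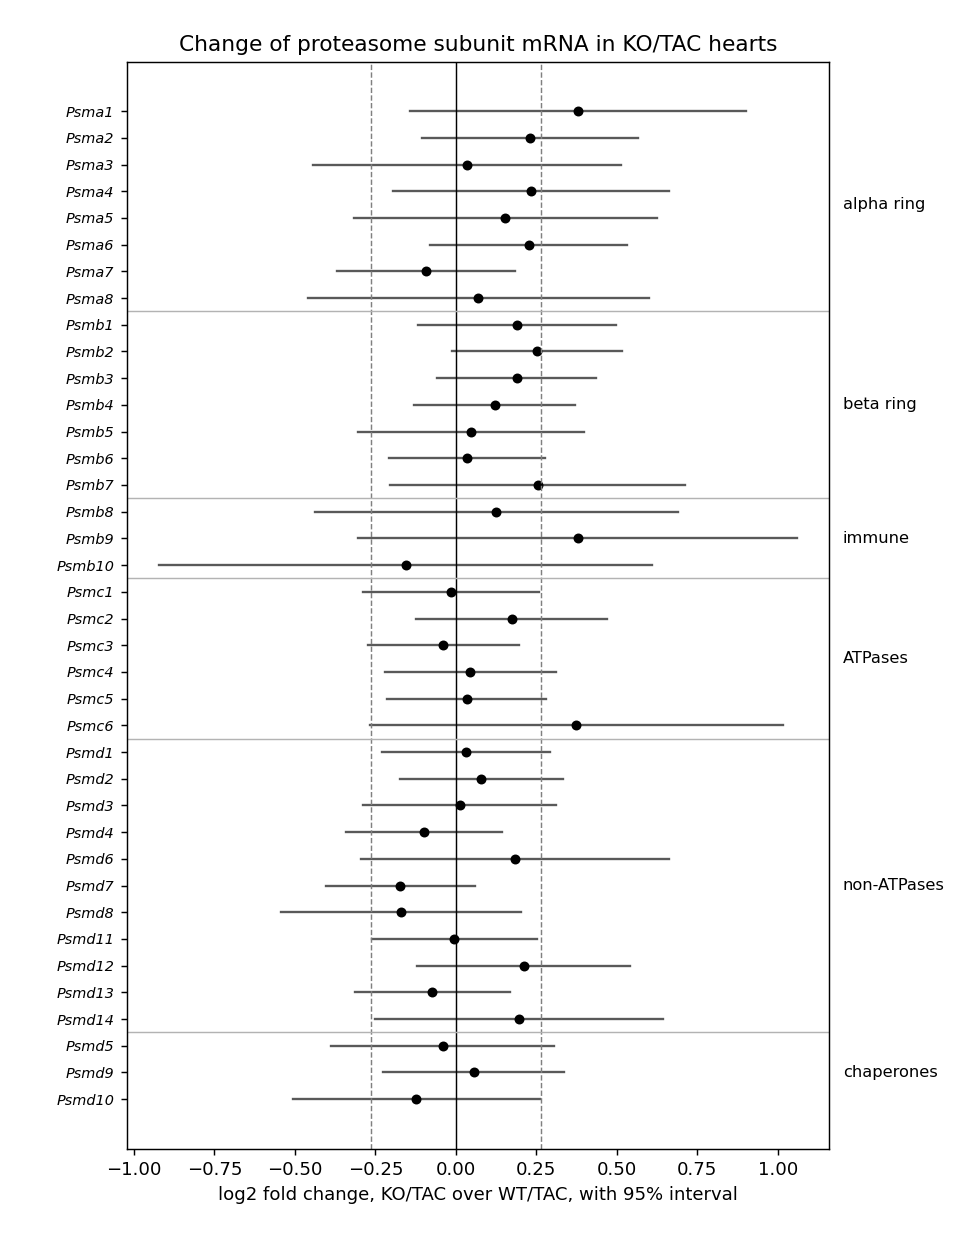
Each point is the fitted log2 fold change of a proteasome gene, KO/TAC over WT/TAC (3 hearts each), with its 95% interval, and dashed lines mark a fold of 1.2 in either direction. All 38 intervals cross 0, and points of the alpha and beta rings lie mostly to the right of it.

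The 14 standard core genes, Psma1 to Psma7 and Psmb1 to Psmb7, encode the rings present in nearly all cells. Their FPKM summed to 1631, 1452 and 1700 in KO/TAC hearts and to 1349, 1600 and 1350 in WT/TAC hearts. KO/TAC replicate 2 lay below WT/TAC replicate 2, so that the groups overlapped, with means of 1594 ± 128 FPKM in KO/TAC and 1433 ± 145 FPKM in WT/TAC (SD, n = 3 each) and a ratio of 1.11. The fitted change was positive for 13 of the 14, with a median of 0.19 on the log2 scale. The 20 regulatory subunits and chaperones summed to 1183, 1092 and 1214 FPKM in KO/TAC hearts and to 1114, 1196 and 1147 FPKM in WT/TAC hearts, a ratio of 1.01. Their median was 0.02, with 11 positive and 9 negative. The difference between core and regulatory genes was not tested.

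In the alpha ring, which forms the gate of the barrel, 7 of 8 genes had a positive change and 0 rose. Psma6 had the highest level of the ring, at 128.9, 110.6 and 130.4 FPKM in KO/TAC hearts and 103.7, 117.5 and 95.27 FPKM in WT/TAC hearts (log2 fold change 0.23, standard error 0.13, limma adjusted p = 0.571). The groups overlapped because KO/TAC replicate 2 was below WT/TAC replicate 2. Psma1, with the second lowest p of the ring, had 74.2, 59.3 and 89.01 FPKM in KO/TAC hearts and 61.34, 67.36 and 42.79 FPKM in WT/TAC hearts (log2 fold change 0.38, standard error 0.22). The means were 74.2 ± 14.9 FPKM in KO/TAC and 57.2 ± 12.8 FPKM in WT/TAC (SD, n = 3 each), and the groups overlapped. Psma8, the testis-specific relative of Psma7, was the lowest, at 0.61, 0.82 and 0.54 FPKM in KO/TAC hearts and 0.40, 0.82 and 0.61 FPKM in WT/TAC hearts. Psma7 was the alpha gene with a negative change, at 100.1 to 103.9 FPKM in KO/TAC hearts and 99.45 to 122.6 FPKM in WT/TAC hearts.

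All 7 constitutive beta genes had a positive change, from 0.03 to 0.25, and again 0 rose. Psmb7, the trypsin-like catalytic subunit and the most abundant member, had 252.7, 205.0 and 252.7 FPKM in KO/TAC hearts and 160.9, 254.6 and 188.3 FPKM in WT/TAC hearts. WT/TAC replicate 1 was the lowest and WT/TAC replicate 2 the highest of all 6 hearts. Psmb5, the chymotrypsin-like subunit, had 143.0, 129.9 and 143.8 FPKM in KO/TAC hearts and 110.8, 153.0 and 142.9 FPKM in WT/TAC hearts. Psmb6, the caspase-like subunit, had 122.5, 119.5 and 121.3 FPKM in KO/TAC hearts and 111.9, 117.4 and 125.8 FPKM in WT/TAC hearts. Its log2 fold change of 0.03 had a standard error of 0.10. The groups overlapped in all 3 catalytic genes.

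Psmb2, a beta subunit without a cutting site and the lowest of the constitutive beta genes, had 107.7, 96.75 and 104.5 FPKM in KO/TAC hearts and 84.95, 93.83 and 80.81 FPKM in WT/TAC hearts. Every KO/TAC heart was above every WT/TAC heart, the means being 103.0 ± 5.63 FPKM in KO/TAC and 86.5 ± 6.65 FPKM in WT/TAC (SD, n = 3 each), and the log2 fold change was 0.25 with a standard error of 0.11. Psmb3, another beta subunit of this kind, had 126.3, 122.0 and 130.5 FPKM in KO/TAC hearts and 103.3, 113.2 and 115.7 FPKM in WT/TAC hearts (log2 fold change 0.19, standard error 0.10, limma adjusted p = 0.555). These were the members in which KO/TAC hearts lay above WT/TAC hearts without overlap.

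**Figure D2:**
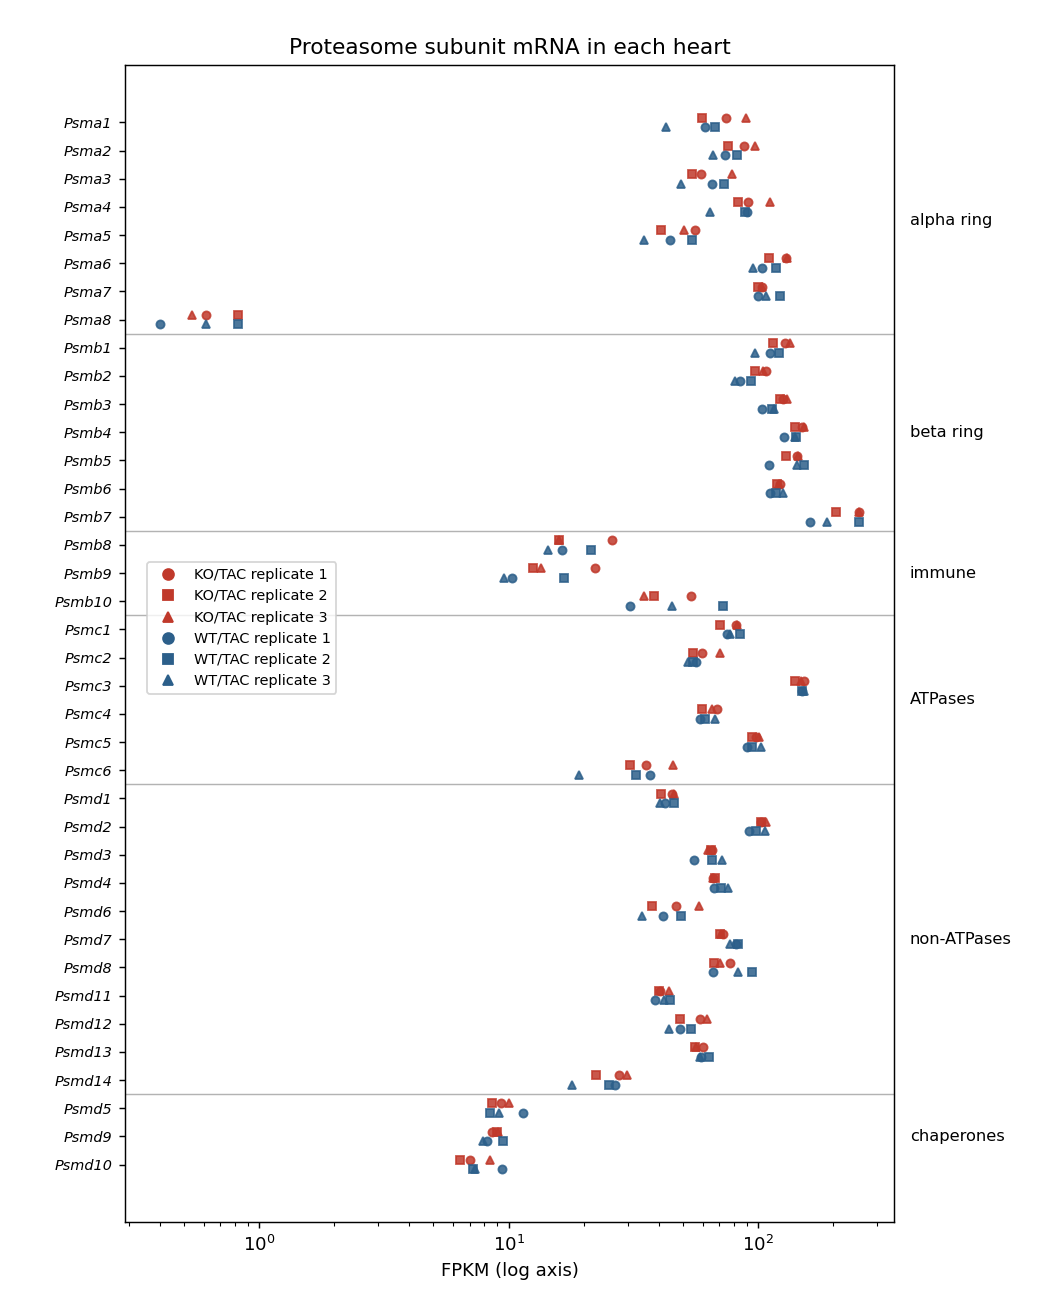
FPKM on a log axis for each of the 38 members tested in each heart, KO/TAC in red above WT/TAC in blue, with 1 shape per replicate number. In most members the groups are interleaved, the immune subunits and chaperones sit below the standard core genes, and Psma8 lies between 0.40 and 0.82 FPKM.

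The 3 immune catalytic subunits were expressed well below the constitutive subunits that they replace. Psmb9 had 22.23, 12.47 and 13.43 FPKM in KO/TAC hearts and 10.31, 16.7 and 9.56 FPKM in WT/TAC hearts, and its log2 fold change of 0.38 had a standard error of 0.29. Psmb8 had 26.04, 15.93 and 15.92 FPKM in KO/TAC hearts and 16.42, 21.41 and 14.4 FPKM in WT/TAC hearts (log2 fold change 0.12, standard error 0.24). Psmb10 had 53.97, 38.42 and 34.97 FPKM in KO/TAC hearts and 30.57, 72.58 and 45.34 FPKM in WT/TAC hearts (log2 fold change -0.16, standard error 0.32). KO/TAC replicate 1 and WT/TAC replicate 2 were the highest hearts of their groups in all 3 genes, and the groups overlapped in each. The 95% interval of the fold was widest here, from 0.811 to 2.08 for Psmb9 and from 0.527 to 1.53 for Psmb10. Summed, the immune subunits averaged 77.8 ± 21.2 FPKM in KO/TAC and 79.1 ± 28.0 FPKM in WT/TAC (SD, n = 3 each).

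As a share of the subunit replaced, Psmb9 stood at 18.2%, 10.4% and 11.1% of Psmb6 in KO/TAC hearts and at 9.21%, 14.2% and 7.60% in WT/TAC hearts. Psmb8 stood at 18.2%, 12.3% and 11.1% of Psmb5 in KO/TAC hearts and at 14.8%, 14.0% and 10.1% in WT/TAC hearts. Psmb10 stood at 21.4%, 18.7% and 13.8% of Psmb7 in KO/TAC hearts and at 19.0%, 28.5% and 24.1% in WT/TAC hearts. The Psmb10 share averaged 18.0 ± 3.82% in KO/TAC and 23.9 ± 4.75% in WT/TAC, and the ranges overlapped in all 3 pairs. Shares are of RNA per length and do not give the make-up of the assembled particle.

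**Figure D3:**
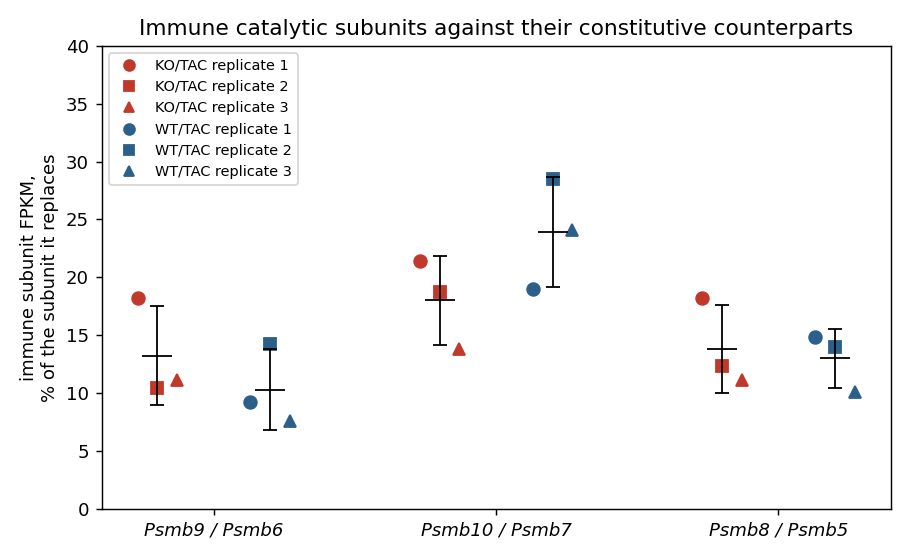
FPKM of each immune subunit as a percentage of the constitutive subunit it replaces, in each heart, KO/TAC in red left of WT/TAC in blue, with the mean and SD of 3 hearts in black. KO/TAC replicate 1 is the highest KO/TAC heart in every pair, and the 2 groups overlap in each.

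Of the 9 interferon and antigen presentation genes listed beside the immune subunits, 9 were highest in KO/TAC replicate 1 among KO/TAC hearts, while among WT/TAC hearts 4 were highest in replicate 2 and 5 in replicate 1. Tap1, which pumps peptides into the endoplasmic reticulum, had 13.92, 8.62 and 7.47 FPKM in KO/TAC hearts and 5.38, 11.72 and 4.7 FPKM in WT/TAC hearts. Nlrc5, the activator of class I genes, and B2m, the light chain of class I molecules, followed the same order at the top of each group, with B2m at 705.5 FPKM in KO/TAC replicate 1 and 416.4 FPKM in WT/TAC replicate 2. These genes were named after their values were seen. The 6 leukocyte, T and B cell markers, none of them at 0 in any heart, summed to 5.38, 2.34 and 2.66 FPKM in KO/TAC hearts and to 2.31, 3.68 and 1.74 FPKM in WT/TAC hearts, again highest in KO/TAC replicate 1 and WT/TAC replicate 2. The 5 macrophage markers summed to 317.2, 231.9 and 309.5 FPKM in KO/TAC hearts and to 374.4, 302.8 and 301.4 FPKM in WT/TAC hearts, highest in KO/TAC replicate 1 and WT/TAC replicate 1. The part of leukocyte RNA in the immune subunit values was not tested.

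The 6 ATPases form the ring that unfolds substrates, and 0 rose or fell. Psmc3, the most abundant, had 153.2, 140.8 and 147.9 FPKM in KO/TAC hearts and 150.2, 150.3 and 153.1 FPKM in WT/TAC hearts, a log2 fold change of -0.04 with a standard error of 0.10. Psmc2 had 59.72, 55.01 and 70.46 FPKM in KO/TAC hearts and 56.15, 54.67 and 52.46 FPKM in WT/TAC hearts (log2 fold change 0.17, standard error 0.12). KO/TAC replicate 3 stood above all others in that gene. Psmc6, the lowest ATPase, had 35.67, 30.58 and 45.78 FPKM in KO/TAC hearts and 36.83, 32.26 and 19.06 FPKM in WT/TAC hearts, and its log2 fold change of 0.37 had a standard error of 0.27. Its value in WT/TAC replicate 3 was the lowest and that in KO/TAC replicate 3 the highest, while the other 4 hearts lay between 30.58 and 36.83 FPKM. Although the ATPases occupy equal places in the ring, their mean levels per length spanned 4.47-fold, and those of the 14 standard core genes spanned 4.68-fold.

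Among the 11 non-ATPase subunits, 6 had a positive and 5 a negative change, and 0 passed the thresholds. Psmd7, a lid subunit that pairs with the deubiquitinase Psmd14, had 72.31, 70.35 and 71.29 FPKM in KO/TAC hearts and 81.33, 83.12 and 76.96 FPKM in WT/TAC hearts. Every KO/TAC heart was below every WT/TAC heart, but the log2 fold change was -0.17, with a standard error of 0.10 and a limma adjusted p of 0.566. Psmd14 itself, the lowest of the class, had 27.62, 22.42 and 29.86 FPKM in KO/TAC hearts and 26.75, 25.26 and 18.03 FPKM in WT/TAC hearts (log2 fold change 0.20, standard error 0.19). Psmd2, a scaffold of the base that receives ubiquitin shuttles and the highest of the class, had 102.3, 102.8 and 107.2 FPKM in KO/TAC hearts and 91.66, 97.96 and 106.5 FPKM in WT/TAC hearts (log2 fold change 0.08, standard error 0.11). Psmd12, a lid subunit, had 58.71, 48.78 and 62.2 FPKM in KO/TAC hearts and 48.84, 53.59 and 43.79 FPKM in WT/TAC hearts (log2 fold change 0.21, standard error 0.14). The groups overlapped in Psmd14, Psmd2 and Psmd12.

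The 3 assembly chaperones of the regulatory particle were the least abundant of the tested members apart from Psma8. Psmd5 had 9.3, 8.61 and 10.02 FPKM in KO/TAC hearts and 11.38, 8.43 and 9.14 FPKM in WT/TAC hearts. Psmd9 had 8.57, 8.95 and 9.04 FPKM in KO/TAC hearts and 8.17, 9.47 and 7.93 FPKM in WT/TAC hearts. Psmd10, known as gankyrin, had 7.02, 6.37 and 8.43 FPKM in KO/TAC hearts and 9.39, 7.21 and 7.31 FPKM in WT/TAC hearts (log2 fold change -0.12, standard error 0.16). Psmd5 and Psmd10 were the members that were highest in WT/TAC replicate 1, the heart in which 34.3% of all genes tested were highest.

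The hearts differed from one another within each group in a way that ran through many subunits. KO/TAC replicate 3 was the highest of the 6 hearts in 14 of 38 members, against 15.0% of all genes tested, and WT/TAC replicate 3 was the lowest in 17, against 24.0%. WT/TAC replicate 1 was the lowest in 14, against 22.1% of all genes tested, and WT/TAC replicate 2 the highest in 11, against 14.4%. In 11 members KO/TAC replicate 3 was the highest and WT/TAC replicate 3 the lowest at once, namely Psma1, Psma2, Psma3, Psma4, Psma6, Psmb1, Psmc2, Psmc6, Psmd6, Psmd12 and Psmd14. These 11 had transcripts of low GC content, with a median of 44.7%. The median was 52.2% in the other 27 members and 51.2% over all genes tested with a value. The share of all genes tested with both extremes at once is not given here.

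Across the 38 members, the difference of KO/TAC replicate 3 from the other KO/TAC hearts, on the log2 scale, had a Pearson correlation of -0.72 with transcript GC (Spearman -0.78), and over 12193 genes it was -0.36 (Spearman -0.43). The difference of WT/TAC replicate 3 from the other WT/TAC hearts had a correlation of 0.65 over the members (Spearman 0.64) and 0.43 over the 12193 genes (Spearman 0.53). The replicates numbered 3 thus leaned in opposite directions along GC content. WT/TAC replicate 1 leaned as well, with a correlation of -0.66 over the members (Spearman -0.65) and -0.16 over the 12193 genes. KO/TAC replicate 1 had 0.45 over the members (Spearman 0.40) and 0.03 over those genes. Each difference is taken from the other hearts of the same group, so the values of hearts in a group are tied to one another. The log2 fold changes of KO/TAC over WT/TAC had a correlation of -0.37 with GC over the members and -0.20 over all genes. These correlations are descriptions across genes that share the same libraries, and genes are not independent replicates.

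With a trend on GC content removed from each library, an alternative chosen after the data were seen, the standard error fell in 33 of 38 members and its median was 0.11, against 0.13 with values as deposited. Psmc6 then had a log2 fold change of 0.15 with a standard error of 0.11, against 0.37 and 0.27 as deposited. Psma3, an alpha gene of low GC content, had -0.11 with the trend removed and 0.04 as deposited. Still 0 members passed the thresholds, and 2 had an unadjusted p under 0.05, Psmb2 at 0.26 and Psmb3 at 0.23 on the log2 scale. The median over the members was 0.09 with the trend removed. What made the libraries differ along GC content was not tested.

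**Figure D4:**
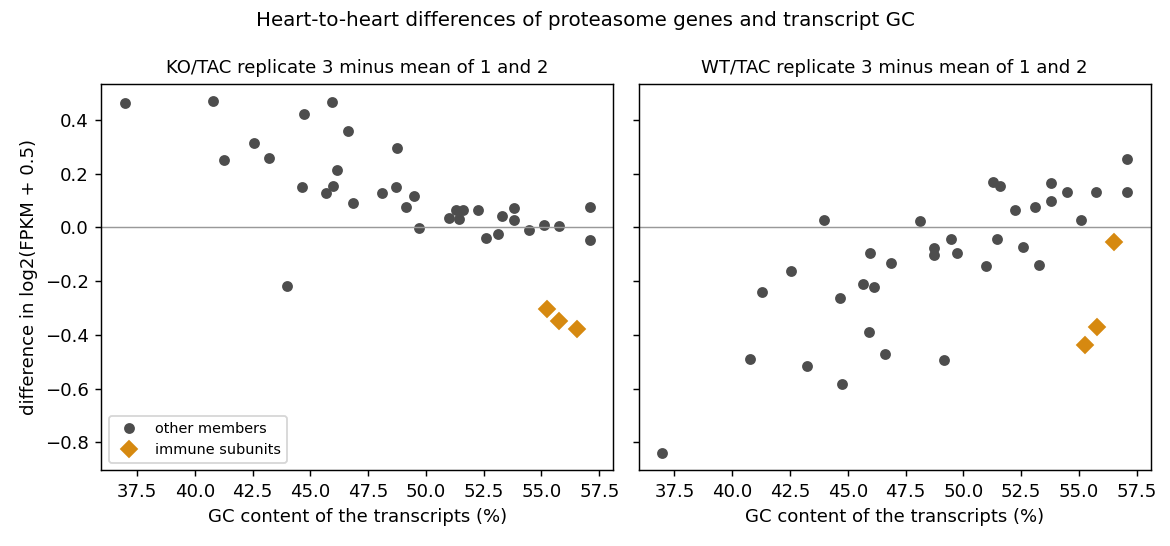
For each of the 38 members, the difference of replicate 3 from the mean of the other hearts of its group in log2(FPKM + 0.5), KO/TAC left and WT/TAC right, is plotted against the GC content of its transcripts in percent, with immune subunits as diamonds. Members of low GC content, Psma8 apart, lie above 0 in KO/TAC replicate 3 and below 0 in WT/TAC replicate 3, and the 3 immune subunits lie below 0 in both.

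Over the 6 hearts, the alpha ring genes without Psma8 varied closely together, with a median Pearson correlation of 0.82 over 21 pairs of genes. The median was 0.66 over the 3 pairs of immune subunits, 0.29 over the 15 pairs of ATPases and 0.31 over all 703 pairs of members. Each correlation rests on 6 libraries and shares their depth and base composition.

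Other genes of the pathway were grouped in 5 lists with 43 genes reported. By limma, 2 of these rose, 0 fell and the median log2 fold change was 0.01. The study's own list of differentially expressed genes also held Psme2 as up-regulated and Nfe2l2 as down-regulated. Nfe2l2, named after its values were seen, had 29.23, 31.16 and 27.82 FPKM in KO/TAC hearts. In WT/TAC hearts it had 35.72, 32.12 and 40.43 FPKM, without overlap (log2 fold change -0.29, standard error 0.12). The 7 activators, inhibitors and remaining subunits had 1 gene that rose and a median of 0.17, and the 10 genes of assembly and transcription had 1 and a median of 0.05. The 11 deubiquitinases, shuttles and unfolding factors had 0 and a median of -0.04. The 6 genes of ubiquitin and its activation had 0 and a median of -0.03. The 9 interferon and antigen presentation genes had 0 and a median of 0.22. The share of all genes tested that were higher at the thresholds was 4.94%, as given above.

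Psme1, the alpha subunit of an interferon-induced activator that opens the core in place of the regulatory particle, had 166.5, 163.1 and 143.1 FPKM in KO/TAC hearts and 80.99, 109.9 and 114.8 FPKM in WT/TAC hearts. Every KO/TAC heart was above every WT/TAC heart, and Psme1 rose with a log2 fold change of 0.64 and a standard error of 0.16 (limma adjusted p = 0.278). Its partner in the same ring, Psme2, named after its values were seen, had 83.68, 69.13 and 69.29 FPKM in KO/TAC hearts and 57.15, 65.18 and 59.32 FPKM in WT/TAC hearts. It also showed no overlap but stayed outside the thresholds by limma (log2 fold change 0.28, standard error 0.12, limma adjusted p = 0.461). The study's own list of differentially expressed genes held Psme2 as up-regulated.

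Psmg1, a chaperone that guides the assembly of the alpha ring, had 19.3, 19.66 and 21.0 FPKM in KO/TAC hearts and 15.18, 15.43 and 14.52 FPKM in WT/TAC hearts. The means were 19.99 ± 0.896 FPKM in KO/TAC and 15.0 ± 0.470 FPKM in WT/TAC (SD, n = 3 each), and Psmg1 rose with a log2 fold change of 0.40 and a standard error of 0.10 (limma adjusted p = 0.283). Its partner Psmg2, also named after its values were seen, had 24.19, 20.83 and 27.75 FPKM in KO/TAC hearts and 13.77, 23.91 and 16.71 FPKM in WT/TAC hearts, and the groups overlapped. Psme1 and Psmg1 passed the thresholds under each of the 17 alternatives.

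Erap1, which trims peptides for class I molecules, had the smallest p of the interferon and antigen presentation list, with 8.02, 6.72 and 7.99 FPKM in KO/TAC hearts and 7.13, 6.03 and 4.93 FPKM in WT/TAC hearts. KO/TAC replicate 2 was below WT/TAC replicate 1, and the log2 fold change of 0.32, with a standard error of 0.16, did not pass the thresholds (limma adjusted p = 0.537).

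Nfe2l1, the factor that drives constitutive proteasome genes, had 188.6, 201.9 and 191.9 FPKM in KO/TAC hearts and 172.2, 189.7 and 224.6 FPKM in WT/TAC hearts, a log2 fold change of -0.002 with a standard error of 0.13. The KO/TAC hearts lay inside the wider range of the WT/TAC hearts, and it was named for its role after its values were seen. Usp14, a deubiquitinase that trims ubiquitin at the regulatory particle, had the smallest p of its list, with means of 26.4 ± 2.88 FPKM in KO/TAC and 22.9 ± 2.93 FPKM in WT/TAC (SD, n = 3 each). Ubb, a polyubiquitin gene, had the smallest p of the ubiquitin list, with 687.6, 725.2 and 696.1 FPKM in KO/TAC hearts and 748.9, 747.3 and 877.5 FPKM in WT/TAC hearts. The KO/TAC hearts lay below the WT/TAC hearts in Ubb without overlap, but its log2 fold change of -0.17, with a standard error of 0.12, did not pass the thresholds.

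**Figure D5:**
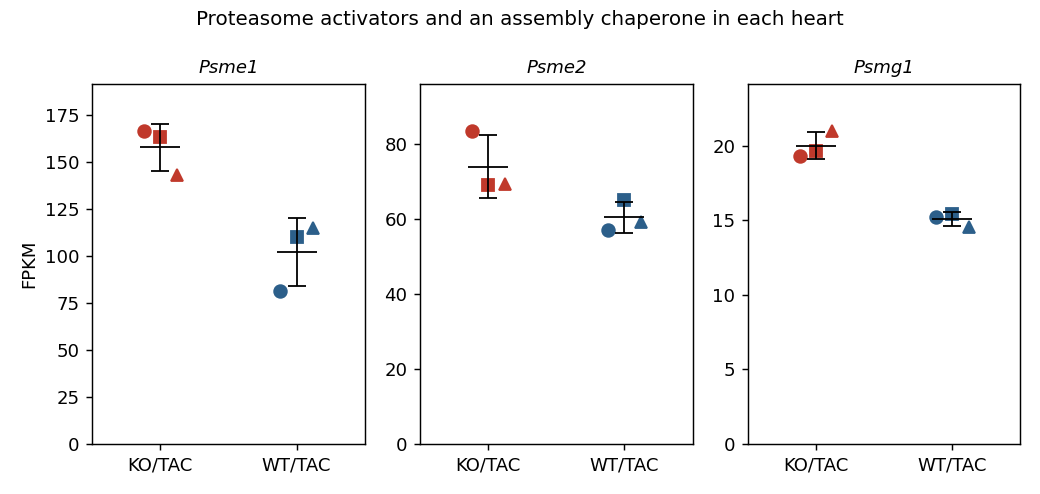
FPKM of Psme1, Psme2 and Psmg1 in each heart, KO/TAC in red left of WT/TAC in blue, with circles, squares and triangles for replicates 1, 2 and 3 and the mean and SD in black. The groups are apart in all 3 genes.

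Promoters of 32 of the 39 members were found in the RefSeq table, 34 windows in all, each from 250 bases before to 50 after the start. They were searched on both strands for 5 motifs, and the same search was made in the 17287 windows of genes in the files. The box CCAAT, bound by NF-Y, was in 38.2% of member windows and 37.4% of all windows, and in 7 of the 13 windows of core genes. Psmb3 held it at 43 and 85 bases before the start, as the capitals of its run show. The core of the antioxidant response element, TGACNNNGC, through which Nfe2l1 and Nfe2l2 can act, was in 14.7% of member windows and 13.7% of all windows. In Psmb5 its match lay 47 bases before the start.

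The core of the interferon-stimulated response element, GAAA and GAAA with 2 bases between them, was in 3 of the 34 member windows (8.82%), those of Psmd4, Psmd9 and Psmb3, against 3.12% of all windows. The windows of Psmb8, Psmb9 and Psmb10 held 0 matches to it. The GAS element of interferon response, TTCNNNGAA, was in 5.88% of member windows and 7.13% of all windows, and lay 97 bases before the start of Psmb8. The TATA box, TATAAA, was in 11.8% of member windows and 8.78% of all windows. The Psmb9 window overlaps that of Tap1, which is transcribed in the other direction. A match describes the letters only, and binding was not measured here.

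Some values may hold reads of other genes. Of the members, 9 overlap another RefSeq gene, 3 of them a gene in the files (Psma4, Psmd1 and Psmd10), and 6 RefSeq pseudogenes are named after members. How such reads were split is not given in the sources used here. Further, Psma7 and Psma8 are close relatives whose reads could be shared.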

How the data were processed

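Heart RNA of 3 KO/TAC and 3 WT/TAC mice was sequenced, with a stranded kit. The authors deposited FPKM to 2 decimals per Entrez Gene ID, a normalized unit, for each heart. HISAT2 2.0.5 and StringTie 1.3.3 are the tools in the submitters' processing notes. The notes list more than 1 genome build, so positions here are those of RefSeq on GRCm38.p6 and not of the files. Of the 17570 IDs, 17441 matched a RefSeq symbol.

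Genes averaging 0.5 FPKM or more over the 6 libraries entered the test on log2(FPKM + 0.5), run in R 4.3.3 with limma 3.58.1 (lmFit, eBayes with a trend, two-sided), and p-values were adjusted by Benjamini-Hochberg over the 12520 genes tested. Fold changes are on that scale, which understates changes of low genes. The study thresholds were 0.05 for the unadjusted p and 1.2 for the fold. The code was tested on simulated data. Tables and plots were made with Python 3.11.15, pandas 2.3.3, numpy 2.4.6, scipy 1.17.1 and matplotlib 3.10.9.

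Depth was estimated from the steps between the lowest FPKM values, of which 63.6% to 74.1% lay within 0.2 of a step, so read counts were not recovered and no count test was run. GC content was the median over the protein-coding GENCODE transcripts of a gene symbol, and it was known for 97.4% of the genes tested. The members, gene lists and alternatives were chosen with earlier results of these data known. Values in every heart are given for the immune subunits and those they replace, the highest and lowest member of each class, and the 2 with the smallest p of each class. In the pathway lists, genes past the thresholds or else the smallest p are named. Paaf1 was listed and not analysed here, and 1 other listed gene is not reported here and is left out of the counts. Alternatives included other pseudocounts (0.1 and 1), no filter or a minimum mean of 5 FPKM, median ratios, quantile normalization, no variance trend, a gene-by-gene 2-sample test, a replicate block, log2 Myl7 as a covariate, each library left out, and removal of a GC trend.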

Additional observations from a re-analysis of the deposited data

How the results depend on the processing

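The 17 alternatives gave 645 values of single members, of which 36, in 14 members, had another sign than the values as deposited and 3 passed the thresholds. The number of members that rose was 0 to 2 and the number that fell 0 to 1 when a library was left out. Without WT/TAC replicate 2, Psmb7 (0.44) and Psmb2 (0.31) passed as higher, a count of 2, and without WT/TAC replicate 1, the heart highest in atrial markers, Psmd8 passed as lower (-0.31), a count of 1. Both counts were 0 under the other alternatives. The median log2 fold change of the members ran from 0.01 with log2 Myl7 as a covariate to 0.15 without WT/TAC replicate 2. With log2 Myl7 as a covariate the log2 fold change was -0.10 for Psma3, -0.02 for Psma5, -0.07 for Psmb5, -0.06 for Psmb8, -0.03 for Psmd1, -0.02 for Psmd3 and 0.01 for Psmd5. With the GC trend removed, a choice made after the data were seen, it was -0.11 for Psma3, -0.03 for Psma8, 0.02 for Psmc3 and -0.02 for Psmd1. With median ratios it was 0.00 for Psmc1 and 0.01 for Psmd11, and with quantile normalization 0.00 and 0.03 for these genes. With each library left out in turn, it ran from -0.13 to 0.16 for Psma3, -0.01 to 0.31 for Psma5, -0.07 to 0.20 for Psma8, -0.09 to 0.14 for Psmb5, -0.01 to 0.08 for Psmb6, -0.11 to 0.28 for Psmb8, -0.46 to 0.16 for Psmb10, -0.06 to 0.05 for Psmc1, -0.01 to 0.08 for Psmc5, -0.01 to 0.08 for Psmd1, -0.09 to 0.10 for Psmd3, -0.06 to 0.04 for Psmd11 and -0.13 to 0.08 for Psmd5. The cause of these changes was not tested.

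Titles number the hearts 1 to 3 in both groups without saying that a number marks a pair. Hearts of the same number had correlations of -0.29, -0.57 and -0.35 in their deviations from the group means. Between hearts of different number the correlations ran from -0.20 to 0.49. Deviations within a group sum to 0, so these values are tied to one another and cannot settle whether a number marks a pair. With the replicate number as a block, 0 members rose and 0 fell, and over all genes 355 were higher and 524 lower, against 618 and 769 without the block. With a library left out, 262 to 941 genes were higher and 369 to 1171 lower. The median of all genes moved by less than 0.1 on the log2 scale under each scaling. The depth estimate allows no counting interval for single genes. The standard errors given thus rest on the spread between hearts, drawn by limma toward its trend over all genes.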

Other observations

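A subunit and an activator that the naming rule leaves out, both named after their values were seen, followed the order of hearts described for 11 members of low GC content. Sem1, a small lid subunit, had 197.5, 176.1 and 227.2 FPKM in KO/TAC hearts and 188.5, 211.6 and 140.1 FPKM in WT/TAC hearts, with a transcript GC content of 37.3%. Psme4, a nuclear activator that caps the core, had 38.1, 35.31 and 50.28 FPKM in KO/TAC hearts and 31.46, 36.99 and 27.0 FPKM in WT/TAC hearts, with 43.9% GC. In both genes KO/TAC replicate 3 was the highest heart and WT/TAC replicate 3 the lowest, and neither passed the thresholds. In the assembly and transcription list, Ngly1 (44.5% GC) and Psmg1 (51.3% GC) also had that order. Psmg1, which rose at the thresholds, is thus not of low GC content. Other low-GC genes of the pathway lists did not follow that order, among them Uba6 (39.2% GC), Usp14 (40.2%), Uchl5 (40.6%) and B2m (41.2%). Nor did the member Psmd10 (42.6%), highest in WT/TAC replicate 1 and lowest in KO/TAC replicate 2. Psmc3ip, which is not a proteasome subunit, had 1.89, 1.95 and 2.34 FPKM in KO/TAC hearts and 2.55, 2.6 and 2.14 FPKM in WT/TAC hearts, with a log2 fold change of -0.20.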
